A study of Mus musculus with 18 samples.

Results

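The genes described are the 10 measured members of the MYC, MAX and MXD network: Myc, Mycn and Mycl, the common partner Max, and the antagonists Mxd1, Mxd3, Mxd4, Mxi1, Mnt and Mga. They were taken by symbol from the 55450 genes of the count file, and all 10 were among the 19186 genes that passed the filter on low counts. RNA was sequenced from 15 mammary tumors and 3 normal mammary glands of female C57Bl/6 mice, each sample from a different mouse, and the mouse number names the sample. B1/P/Rbf tumors (n = 5) carried the genotype Brca1fl/fl/Trp53fl/fl/TgK18GT121Tg/+, B1/P tumors (n = 5) were Brca1fl/fl/Trp53fl/fl, and P/Rbf tumors (n = 5) were Trp53fl/fl/TgK18GT121Tg/+. The normal glands (n = 3) were wild type. Every tumor was started by adenovirus carrying Cre recombinase, injected into the mammary ducts of adult females, so all 15 carried Trp53 alleles that Cre deletes. B1/P/Rbf and B1/P tumors also carried such Brca1 alleles, while P/Rbf tumors did not. Loss of Brca1 was described as partial in B1/P/Rbf tumor 208863. B1/P/Rbf and P/Rbf tumors expressed T121, a fragment of the SV40 large T antigen that inactivates the pocket proteins of the Rb family. The transgene is driven by the keratin 18 promoter and therefore acts in epithelial cells, whereas the sequenced RNA came from whole tumor or gland with all its cell types. A first comparison asks how the network differs when T121 is added to loss of Brca1 and Trp53. Another asks how it differs when Brca1 loss is added to T121 and Trp53 loss. P/Rbf tumors are also compared with B1/P tumors, and each tumor model with the normal gland. P/Rbf and B1/P tumors differ in both T121 and Brca1 status, whose parts cannot be told apart in that comparison.

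MYC proteins are transcription factors that bind the E-box, a short palindromic DNA motif, as dimers with MAX, and promote ribosome production, metabolism and cell division. The MXD proteins, MXI1 (also called MXD2), MNT and MGA compete for the same partner and the same motif, and as dimers with MAX they recruit repressors, so that the levels of activators and antagonists are commonly considered together. MYC is frequently amplified or overexpressed in breast cancer, and E2F, the factor that the pocket proteins restrain, has been described as an activator of its gene.

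Mycl was the member with the largest difference between tumor models. It was higher in B1/P/Rbf tumors than in those of B1/P mice, with a log2 fold change of 5.76 ± 0.78 (SE), and higher in P/Rbf than in B1/P tumors by 4.00 ± 0.72. Mxd4 fell by 0.90 ± 0.25 and 0.94 ± 0.25 in the same comparisons, but both calls were lost in fits of only the 2 groups compared. The first was also lost under other alternatives, given below. Mxd3 was higher in all 3 tumor models than in normal gland, by 3.32 ± 0.57, 3.07 ± 0.56 and 3.47 ± 0.57 in the B1/P/Rbf group, the B1/P group and the P/Rbf group. Myc itself and Max did not pass the test in any of the 6 comparisons in the fit of all 18 samples, and the plot of CPM by sample shows all 10 genes.

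**Figure D1:**
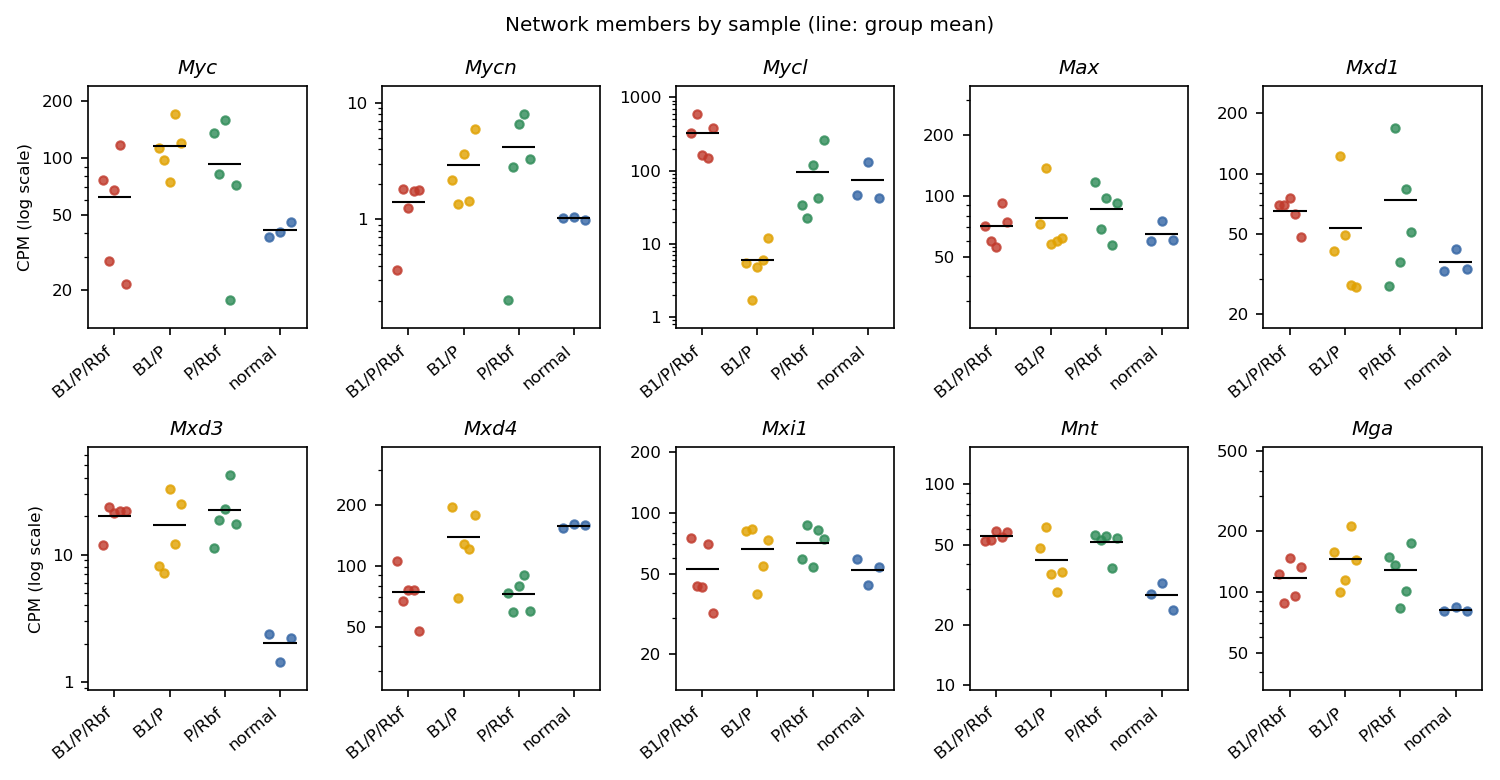
Each point is the CPM of one sample on a log scale, with black lines at the group means (n = 5, 5, 5 and 3). Mycl lies between 148 and 592 CPM in B1/P/Rbf tumors and between 1.69 and 11.9 CPM in B1/P tumors, and Mxd3 is below 3 CPM in the 3 normal glands alone.

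Libraries held 27661173 to 37794889 expected counts, the median being 33802255. CPM is the count scaled to library size after TMM scaling, which corrects for differences in composition between libraries. A gene is called changed where its Benjamini-Hochberg adjusted p is at most 0.05 in edgeR's quasi-likelihood test over all 18 samples. Trp53 averaged 10.8 to 14.8 CPM in the tumor groups and 61.5 ± 9.16 CPM (SD, n = 3) in normal glands, and Brca1 averaged 29.8, 15.3, 79.0 and 5.45 CPM in the B1/P/Rbf, the B1/P, the P/Rbf and the normal samples. Counts per gene do not separate deleted from retained exons, so Brca1 is a check between tumor groups only. Its highest B1/P/Rbf level, 45 CPM in tumor 208863, reached the lowest P/Rbf level, 44.9 CPM in tumor 287842, and the other 4 B1/P/Rbf tumors had 21.1 to 27.9 CPM. Cell type marker sums varied between the groups, with ranges that overlapped for some lists. The summed CPM of 5 luminal markers was 683 to 3074 in B1/P tumors, 2832 to 6351 in B1/P/Rbf and 5931 to 12263 in P/Rbf tumors. The sum of 5 basal markers was 337 to 2158 in B1/P, 48.3 to 333 in B1/P/Rbf and 72.8 to 1444 in P/Rbf tumors. The sum of 7 fibroblast markers was 2541 to 12757 in B1/P, 826 to 4722 in B1/P/Rbf and 1250.3 to 3996 in P/Rbf tumors. Normal glands held 10276 to 14284 CPM of 6 adipocyte markers, 22793 to 44009 of 6 skeletal muscle markers and 369 to 510 of 7 lymphocyte markers. The tumors held at most 214 CPM of the adipocyte and 31.1 of the lymphocyte markers. Their muscle marker sums reached 24.4 CPM in B1/P/Rbf and 9.44 in P/Rbf tumors, and ran from 13.0 to 607 with a median of 15.8 in B1/P tumors. The muscle genes Ckm and Pvalb were at 3 counts or fewer in every T121 tumor. No marker was at 0 in every sample of a group. The part of these differences in the results below was not tested.

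The promoters of the 4 members that passed the test in several comparisons are shown because an E-box, its variant CACGCG or an E2F-type motif lies in them. The sequences are RefSeq windows on GRCm38.p6, from 250 bases before to 50 bases after the start of the transcript, written 5′ to 3′ along the gene, with the matched motif in capitals. The Mycl window is chr4:122995681-122995980 on the plus strand, that of Mxd3 is chr13:55329682-55329981 on the minus strand, that of Mxd4 is chr5:34187661-34187960 on the minus strand, and that of Mnt is chr11:74830674-74830973 on the plus strand.
Mycl promoter: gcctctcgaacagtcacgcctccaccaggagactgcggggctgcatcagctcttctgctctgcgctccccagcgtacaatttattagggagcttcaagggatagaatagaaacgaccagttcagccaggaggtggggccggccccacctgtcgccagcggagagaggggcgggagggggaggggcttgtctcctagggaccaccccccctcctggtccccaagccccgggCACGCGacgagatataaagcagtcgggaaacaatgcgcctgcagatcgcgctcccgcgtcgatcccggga
Mxd3 promoter: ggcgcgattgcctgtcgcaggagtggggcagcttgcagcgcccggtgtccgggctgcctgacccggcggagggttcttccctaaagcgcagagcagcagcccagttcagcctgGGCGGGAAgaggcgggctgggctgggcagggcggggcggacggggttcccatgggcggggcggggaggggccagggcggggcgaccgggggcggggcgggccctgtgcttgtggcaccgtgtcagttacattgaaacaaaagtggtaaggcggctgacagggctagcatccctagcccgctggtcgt
Mxd4 promoter: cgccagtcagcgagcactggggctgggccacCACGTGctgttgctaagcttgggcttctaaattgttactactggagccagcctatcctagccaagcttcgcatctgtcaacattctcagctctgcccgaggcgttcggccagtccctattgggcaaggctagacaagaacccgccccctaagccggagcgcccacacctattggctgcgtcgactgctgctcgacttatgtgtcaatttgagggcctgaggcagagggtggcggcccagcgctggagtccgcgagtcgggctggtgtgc
Mnt promoter: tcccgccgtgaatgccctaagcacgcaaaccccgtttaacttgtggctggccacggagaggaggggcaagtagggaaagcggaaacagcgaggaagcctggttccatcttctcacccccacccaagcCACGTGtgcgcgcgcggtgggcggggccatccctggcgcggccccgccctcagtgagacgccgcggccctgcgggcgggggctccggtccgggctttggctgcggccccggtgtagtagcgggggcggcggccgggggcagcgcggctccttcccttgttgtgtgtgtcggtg
The motifs searched on both strands were the E-box CACGTG, which 7.15% of 32851 promoter windows of the same length held, the variant CACGCG (9.27%), and the E2F-type motifs TTTCGCGC (0.323%), TTTGGCGC (0.514%) and GGCGGGAA (2.19%). Mycl held CACGCG at position -20 from its start, Mxd3 held GGCGGGAA at -137, and CACGTG was at -219 in Mxd4 and at -123 in Mnt. Among the other members with a window, CACGTG was found in Max, and CACGCG in Mga. Mycn held 2 copies of TTTGGCGC, one of which overlaps a TTTCGCGC on the other strand. None of the 5 motifs was in the windows of Mxd1 and Mxi1, and Myc had no window to search. A match describes the letters in the window and is not evidence of binding.

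Mycl encodes L-MYC, the family member first found amplified in small cell lung cancer and otherwise expressed in certain epithelia and in dendritic cells. The gene lies at chr4:122995652-123002485 on the plus strand of GRCm38, with 4038 bases of exon. B1/P/Rbf tumors 208855, 208857, 208863, 209490 and 210906 had 328, 592, 165, 148 and 378 CPM. B1/P tumors 225068, 225070, 246361, 255232 and 248662 had 5.44, 1.69, 4.80, 5.97 and 11.9 CPM. P/Rbf tumors 287842, 287845, 290860, 287822 and 290845 had 34.3, 22.3, 118, 41.6 and 262 CPM, and normal glands 330154, 330155 and 330156 had 47.1, 131 and 42.5 CPM. All 5 B1/P tumors were below every other sample, and all 5 B1/P/Rbf tumors were above every normal gland. P/Rbf tumors overlapped with both B1/P/Rbf tumors and normal glands, since tumor 290845 exceeded 2 of the B1/P/Rbf tumors and 3 P/Rbf tumors were below all of the glands.

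Between tumors of the B1/P/Rbf and B1/P models the fitted Mycl difference was 54.1-fold (95% interval of the log2 fold change 4.12 to 7.40, adjusted p = 0.000361 by edgeR's quasi-likelihood test), with no overlap in 5 against 5 tumors. In this comparison 2 of the 10 members were called, Mycl and Mxd4, against 16.7% of all genes tested, and the groups did not overlap for 1 member, against 10.5% of all genes. Between P/Rbf and B1/P tumors the Mycl difference was 16-fold (interval 2.50 to 5.51, adjusted p = 0.00181). Again 2 of 10 members were called, beside 19.2% of all genes, and the groups did not overlap for 1, Mycl, beside 8.86% of all genes. Without B1/P/Rbf tumor 208863 the first of these log2 fold changes was 5.92 with an adjusted p of 0.000698. Without P/Rbf tumor 290845 the second log2 fold change was 3.18 with an adjusted p of 0.0043. The T121 tumors and B1/P tumors also differed in luminal, basal and fibroblast markers, as given above. Of the 7 fibroblast genes, 1 was called lower in B1/P/Rbf tumors, Pdgfrb (-1.23), and 3 in P/Rbf tumors, Pdgfra (-3.37), Col3a1 (-2.02) and Pdgfrb (-1.45). The summed CPM of 6 dendritic cell markers, a list added after the data were seen, had medians of 44.8, 41.9 and 33.7 in the B1/P/Rbf group, the B1/P group and the P/Rbf group, and Itgax had the highest mean of the 6, at 33.6, 60.1 and 20.9 CPM. The marker Batf3 was higher in both T121 groups than in B1/P tumors, by 1.34 (adjusted p = 0.0417) and 1.38 (adjusted p = 0.0337, edgeR), and Zbtb46 was higher in B1/P/Rbf tumors by 1.35 (adjusted p = 0.0468), while Itgax was lower in P/Rbf tumors (-1.52, adjusted p = 0.0148). Xcr1, Clec9a and Flt3 were not called in either comparison. The part of these markers in the Mycl difference was not tested. In bulk tissue, fewer cells of a type and less RNA per cell cannot be told apart.

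Mycl averaged 322 ± 181 CPM (SD, n = 5) in B1/P/Rbf and 95.6 ± 100.3 CPM (SD, n = 5) in P/Rbf tumors. The log2 difference of 1.75 ± 0.65 had an unadjusted p of 0.0152 but did not pass the adjusted test (adjusted p = 0.189, edgeR), and its interval ran from 0.38 to 3.12. None of the 10 members was called between the B1/P/Rbf and P/Rbf groups by edgeR, DESeq2 or limma, where 0.281%, 5.35% and 0.136% of all genes were called. The groups overlapped for all 10, while they did not for 3.02% of all genes. At an unadjusted p under 0.05, edgeR counted 2 of the 10 members, Mycl and Mycn, beside 16.1% of all genes.

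Against the mean of 73.6 ± 49.9 CPM (SD, n = 3) in normal glands, Mycl went in opposite directions in 2 of the models. It was lower in B1/P tumors, by a log2 fold change of -3.63 ± 0.74 (adjusted p = 0.00133, edgeR), in all 5 tumors. It was higher in B1/P/Rbf tumors by 2.13 ± 0.80 (adjusted p = 0.0453), also in all 5. In P/Rbf tumors the difference of 0.38 ± 0.74 was not called (adjusted p = 0.713), and was -0.45 without tumor 290845 and -0.09 in limma. The call in B1/P/Rbf tumors was lost without tumor 208855, 208857 or 210906, or gland 330154 or 330156, with adjusted p from 0.0596 to 0.159, and without gland 330155, the highest of the 3, the log2 fold changes were 2.92 and -2.87 in B1/P/Rbf and B1/P tumors.

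Myc, the founding member and the main MYC gene of proliferating tissue, lies at chr15:61985391-61990374 on the plus strand, with 2717 exon bases. Its CPM was 76.4, 28.4, 67.6, 117 and 21.6 in the B1/P/Rbf tumors, in the order given for Mycl. It was 113, 98.1, 74.3, 171 and 120.4 in B1/P tumors and 136, 82.3, 159, 17.6 and 71.5 in P/Rbf tumors. Normal glands had 38.1, 40.6 and 46.0 CPM. Myc was below all normal glands in B1/P/Rbf tumors 208857 and 210906 and in P/Rbf tumor 287822. All 5 B1/P tumors were above the glands.

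The group means of Myc were 62.2 ± 38.8, 115 ± 35.6 and 93.3 ± 55.8 CPM in the B1/P/Rbf group, the B1/P group and the P/Rbf group (SD, n = 5) and 41.6 ± 4.01 CPM in glands (SD, n = 3). The difference between tumors of the B1/P/Rbf and B1/P models, a log2 fold change of -0.89 ± 0.48, did not pass the test (interval -1.91 to 0.13, adjusted p = 0.22, edgeR). That between B1/P tumors and normal gland, 1.47 ± 0.59, missed the threshold in edgeR (interval 0.24 to 2.71, adjusted p = 0.0619) and passed it in DESeq2 (adjusted p = 0.0278), in edgeR without TMM scaling (1.83, adjusted p = 0.0209) and in an edgeR fit of these 2 groups alone (adjusted p = 0.00322). That between P/Rbf tumors and normal gland, 1.17 ± 0.58 (adjusted p = 0.122), was called without P/Rbf tumor 287822 (1.43, adjusted p = 0.0285, edgeR). In the order of levels (B1/P, P/Rbf, B1/P/Rbf, normal gland), no difference between neighbours passed the test.

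Mycn, the family member of embryonic and neural tissue, lies at chr12:12936093-12941914 on the minus strand and was low throughout. It measured 0.369 to 1.81 CPM in B1/P/Rbf, 1.36 to 5.99 in B1/P and 0.201 to 8.00 in P/Rbf tumors, and 0.982 to 1.05 in normal glands. The spread was widest in P/Rbf tumors, whose highest sample, 287822, had 39.7 times the level of the lowest, 287842. The difference between P/Rbf tumors and normal gland, 2.03 ± 0.84 on the log2 scale, was not called by edgeR (adjusted p = 0.0674). It was called by DESeq2 (adjusted p = 0.0219), by edgeR without TMM scaling (2.34, adjusted p = 0.0403) and by edgeR without tumor 287842 (2.43, adjusted p = 0.00975).

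Levels of different genes can be set side by side per kilobase of exon. On that scale the sum of Myc, Mycl and Mycn was 66.1 to 158 CPM per kb in B1/P/Rbf tumors, 29.6 to 64.7 in B1/P tumors, 19.2 to 92.2 in P/Rbf tumors and 26.0 to 47.7 in normal glands. Myc made up 90.3% to 97.7% of this sum in B1/P tumors and Mycl 1.13% to 6.00%. In B1/P/Rbf tumors Mycl made up 45.7% to 93.0%, with the largest shares in 208857 and 210906, the tumors with the least Myc. In P/Rbf tumors the Mycl share ran from 14.5% in 287842 to 70.4% in 290845, and in normal glands from 37.9% to 68.0%. Mycn reached 12.7% of the sum in P/Rbf tumor 287822 and at most 3.71% in any other sample.

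**Figure D2:**
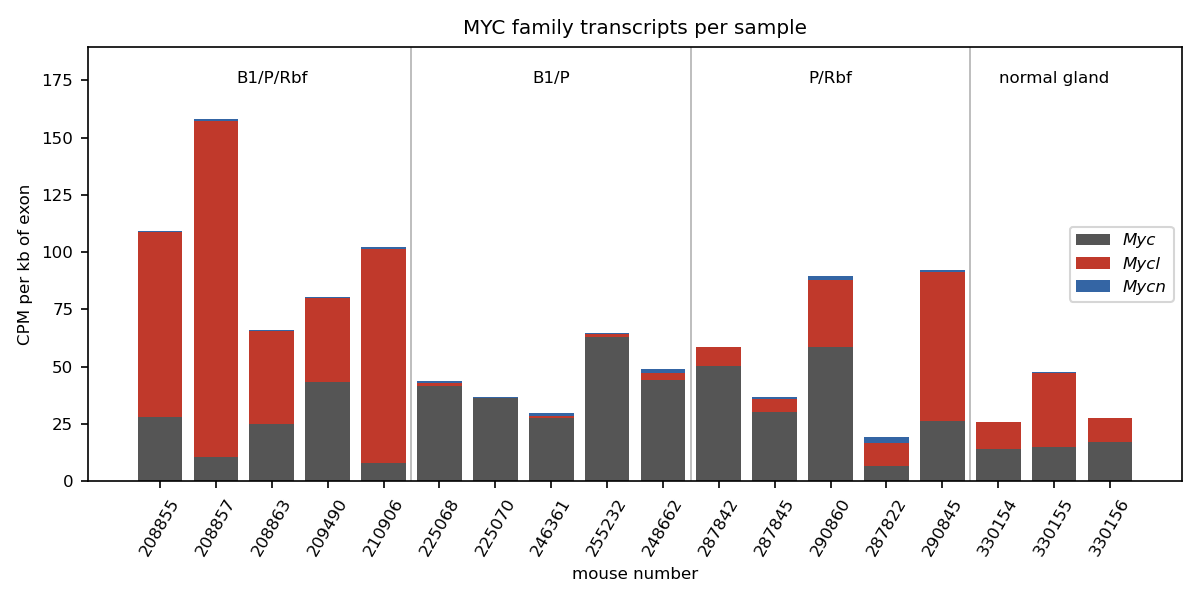
Stacked bars give the CPM per kilobase of exon of Myc (grey), Mycl (red) and Mycn (blue) in each of the 18 mice, grouped by genotype. Mycl takes 45.7% to 93.0% of the bar in B1/P/Rbf tumors and 1.13% to 6.00% in B1/P tumors.

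Max, the obligate partner of both arms, lies at chr12:76937269-76962201 on the minus strand. Its means were 70.7 ± 14.0, 78.0 ± 33.9 and 86.6 ± 24.1 CPM in the B1/P/Rbf group, the B1/P group and the P/Rbf group (SD, n = 5), and 65.0 ± 8.58 CPM in normal glands (SD, n = 3). The log2 differences lay between -0.29 and 0.42 in the 6 comparisons, and no adjusted p was below 0.283 (edgeR). The largest of them, in P/Rbf tumors against normal gland, had an interval of -0.21 to 1.04. One B1/P tumor, 225070, had 138 CPM while the other 4 of its group had 57.9 to 72.3. The MYC family sum was 3.14 to 9.43 times the Max level per kb in B1/P/Rbf tumors, 0.964 to 3.87 times in B1/P, 1.20 to 3.60 times in P/Rbf tumors and 1.57 to 2.29 times in normal glands.

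Mxd3 differs from the other MXD genes in its textbook pattern, being expressed in cells in S phase rather than in cells that leave the cycle. It lies at chr13:55325168-55329823 on the minus strand. B1/P/Rbf tumors had 11.9, 23.6, 21.3, 22.0 and 22.0 CPM, B1/P tumors 8.14, 7.11, 32.7, 12.2 and 24.8, and P/Rbf tumors 11.3, 18.6, 22.7, 41.7 and 17.3. Normal glands had 2.38, 1.44 and 2.23 CPM. All 15 tumors were above all 3 glands, and the tumor groups overlapped with each other.

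The rise of Mxd3 against normal gland was 9.97-fold in B1/P/Rbf (adjusted p = 0.000247), 8.41-fold in B1/P (adjusted p = 0.000511) and 11-fold in P/Rbf tumors (adjusted p = 0.000173, edgeR's quasi-likelihood test). These 3 comparisons share the same glands. Against normal gland, 4 of the 10 members were called in B1/P/Rbf tumors beside 37.0% of all genes tested, 3 in B1/P beside 33.8% and 3 in P/Rbf beside 37.7%. The groups did not overlap for 6, 5 and 3 members, beside 50.5%, 41.4% and 46.5% of all genes. Exons of Mxd3 overlap those of Prelid1 on the other strand by 105 bases of its 2369, and although the library kit keeps the strand, its use in counting is not given in the sources used here.

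Mxd4 is the MXD gene linked to resting and differentiated cells, and lies at chr5:34173883-34187720 on the minus strand. B1/P/Rbf tumors had 106, 66.9, 76.0, 75.9 and 47.8 CPM, and P/Rbf tumors 73.3, 59.0, 79.7, 90.7 and 59.7. B1/P tumors had 197, 69.7, 128, 122 and 179 CPM, and normal glands 154, 161 and 159.9. Every T121 tumor was below every normal gland. The T121 tumors overlapped with B1/P tumors only through tumor 225070 at 69.7 CPM, the other 4 being at 122 CPM or more.

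Mxd4 was lower in B1/P/Rbf tumors than in those of B1/P mice by a log2 fold change of -0.90 ± 0.25 (interval -1.43 to -0.37, adjusted p = 0.0218, edgeR). It was lower in P/Rbf than in B1/P tumors by -0.94 ± 0.25 (interval -1.47 to -0.41, adjusted p = 0.0162). In edgeR fits of only the 2 groups compared both calls were lost (-0.87, adjusted p = 0.0793, and -0.94, adjusted p = 0.0576), and the first was lost with a term for mouse number (-0.82, adjusted p = 0.0719). Against normal gland the log2 fold changes were -1.08 ± 0.28 in B1/P/Rbf (adjusted p = 0.00658) and -1.13 ± 0.28 in P/Rbf tumors (adjusted p = 0.00493), and -0.18 ± 0.29 in B1/P tumors, which was not called (adjusted p = 0.653). The call in B1/P/Rbf tumors against gland was lost without TMM scaling (-0.72, adjusted p = 0.0516) and with a term for mouse number (-0.89, adjusted p = 0.197). The Mxd4 call between tumors of the B1/P/Rbf and B1/P models was lost without B1/P/Rbf tumor 208857 or 210906 or B1/P tumor 225068 or 248662, with adjusted p from 0.0523 to 0.0593. Exons of Mxd4 overlap the antisense gene Gm42846 by 514 of 8483 bases.

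Mxd1, which rises when many cell types differentiate, lies at chr6:86647042-86669161 on the minus strand. It measured 48.6 to 75.9 CPM in B1/P/Rbf tumors, 27.5 to 123 in B1/P tumors, 27.8 to 169 in P/Rbf tumors and 32.8 to 42.3 in normal glands. All 5 B1/P/Rbf tumors were above the glands, but the log2 difference of 0.85 ± 0.54 was not called (adjusted p = 0.228, edgeR). In an edgeR fit of these 2 groups alone it was called (0.84, adjusted p = 0.00562). No other comparison called Mxd1, and its intervals between tumor groups spanned -1.12 to 1.41.

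Mxi1, an antagonist that also recruits SIN3 repressors, lies at chr19:53310518-53375810 on the plus strand, and 194 of its 6823 exon bases overlap Gm10197. Its range was 32.0 to 75.2 CPM in B1/P/Rbf, 39.4 to 83.5 in B1/P and 54.2 to 87.4 in P/Rbf tumors, and 44.1 to 58.8 in normal glands. It was not called in any of the 6 comparisons, with log2 differences from -0.43 to 0.45 and adjusted p of 0.251 or more (edgeR).

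Mnt, the antagonist expressed in most tissues whether or not cells divide, lies at chr11:74830920-74845725 on the plus strand. B1/P/Rbf tumors held a narrow range of 52.3 to 58.8 CPM, P/Rbf tumors 38.5 to 55.9 and B1/P tumors 29.1 to 61.3. Normal glands had 28.4, 32.4 and 23.6 CPM. All T121 tumors were above all glands, while B1/P tumor 255232 lay among them. The log2 fold change against normal gland was 0.98 ± 0.23 in B1/P/Rbf (adjusted p = 0.00297, edgeR) and 0.87 ± 0.23 in P/Rbf tumors (adjusted p = 0.00634). With a term for mouse number the B1/P/Rbf call was lost (0.42, adjusted p = 0.365). The difference was 0.58 ± 0.22 in B1/P tumors, just outside the threshold (adjusted p = 0.0533), and was called by DESeq2 (adjusted p = 0.0274), by limma (0.0316), without TMM scaling (0.93, adjusted p = 0.00411) and without B1/P tumor 246361 or 255232 (0.0445 and 0.0206). Between tumors of the B1/P/Rbf and B1/P models the difference of 0.39 ± 0.19 was not called (interval -0.01 to 0.80, adjusted p = 0.167). Without B1/P tumor 225070 it was 0.57 and was called (adjusted p = 0.034).

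Mga, the largest member, joins MAX to a Polycomb complex known as PRC1.6 and lies at chr2:119897228-119969581 on the plus strand. It had 88.5 to 147 CPM in B1/P/Rbf, 99.7 to 213 in B1/P and 83.4 to 176 in P/Rbf tumors, and 80.0, 84.4 and 80.2 CPM in the glands. B1/P/Rbf and B1/P tumors were all above the glands. In the fit of all samples Mga was called in B1/P tumors against normal gland only, with a log2 fold change of 0.84 ± 0.28 (adjusted p = 0.0267, edgeR). The other 2 models had 0.52 ± 0.27 (adjusted p = 0.142) and 0.66 ± 0.27 (adjusted p = 0.0662), and between tumor groups the differences of -0.31 to -0.14 were not called. The call was lost without B1/P tumor 255232 or any 1 of the 3 glands, with adjusted p from 0.0618 to 0.0899. Mga was called in P/Rbf tumors without tumor 290860 (0.78, adjusted p = 0.0309), and without TMM scaling in P/Rbf (0.93, adjusted p = 0.0115) and B1/P/Rbf tumors (0.89, adjusted p = 0.0144).

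**Figure D3:**
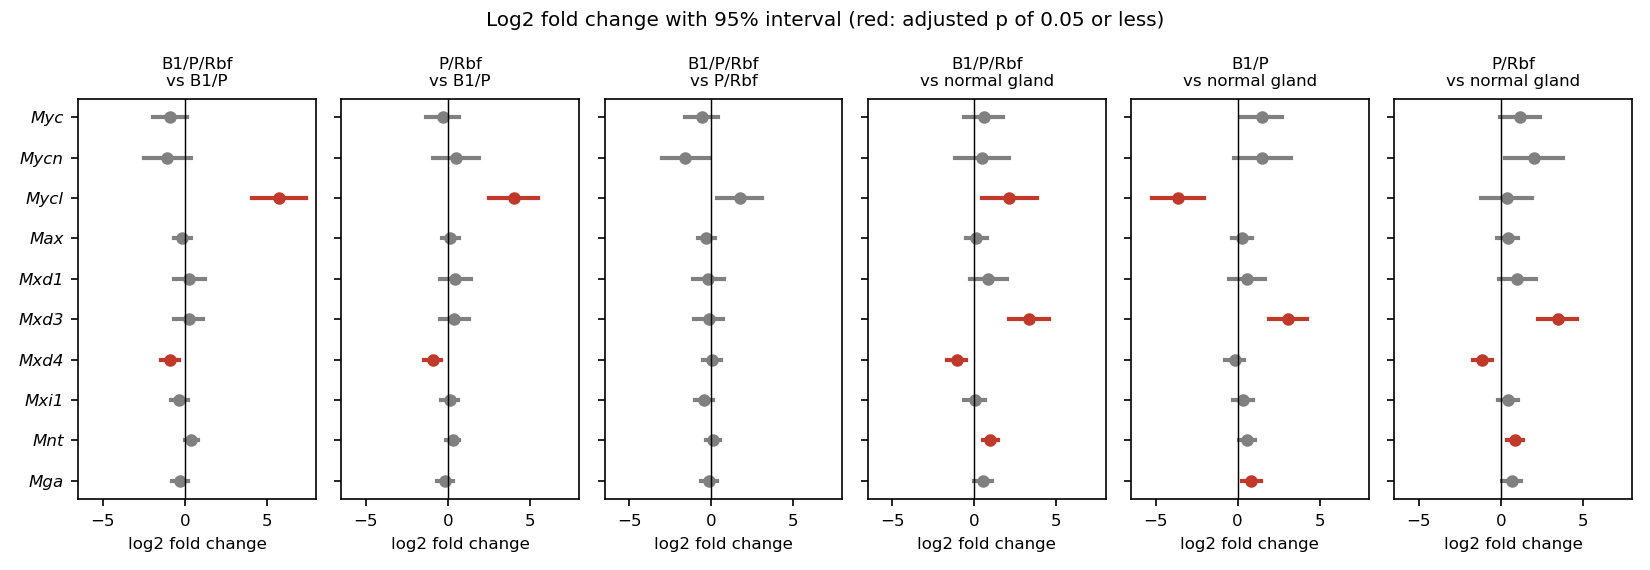
Points are log2 fold changes of the 10 members from one edgeR fit of 18 samples, lines are 95% intervals, and red marks an adjusted p of 0.05 or less. Mycl and Mxd4 are red in both comparisons of T121 tumors with B1/P tumors, none is red between the B1/P/Rbf and P/Rbf groups, and Mxd3 is red in all 3 comparisons with normal gland.

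Per kilobase, the 4 MXD genes together measured 26.5 to 38.5 CPM per kb in B1/P/Rbf, 31.6 to 46.2 in B1/P and 26.0 to 52.1 in P/Rbf tumors, and 32.0 to 32.4 in normal glands. Mxd4 supplied 56.0% to 59.2% in normal glands and 20.1% to 52.2% in B1/P tumors, against 21.3% to 32.6% in B1/P/Rbf and 13.5% to 33.3% in P/Rbf tumors. Mxd3 supplied 1.90% to 3.11% in normal glands and 7.34% to 35.0% in the tumors. With Mnt and Mga added, the antagonists summed to 47.7 to 57.8, 51.7 to 65.3, 47.8 to 71.8 and 42.8 to 44.5 CPM per kb in the 4 groups. The MYC family sum over this antagonist sum was 1.15 to 3.07 in B1/P/Rbf tumors, 0.521 to 1.25 in B1/P, 0.286 to 1.81 in P/Rbf tumors and 0.595 to 1.07 in normal glands. The highest ratio was in B1/P/Rbf tumor 208857 and the lowest in P/Rbf tumor 287822.

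Across the 15 tumors, deviations of log2 CPM from the group mean were correlated between members as a description. The pairs with the strongest positive values were Max with Mnt (Pearson r = 0.76) and Mycn with Mxd3 (r = 0.75), and the strongest negative ones Max with Mxd3 (r = -0.66), Mxd3 with Mnt (r = -0.62) and Mycl with Mxd1 (r = -0.57). Myc and Mycl had r = -0.07. In P/Rbf tumor 287822 Max and Mnt were the lowest of the group, and Mycn and Mxd3 the highest. B1/P tumor 225070 had the highest Max and the lowest Mxd3 of its group. The correlations were not run again without these tumors. Among the 12590 genes that averaged 5 CPM or more, the closest to Myc were Adck1 (r = 0.89), Csnk2a2 (r = 0.88) and Gm4735 (r = 0.88), and the closest to Mxd3 were Fam83b (r = 0.84), Tnfrsf19 (r = 0.83) and Melk (r = 0.82). The closest to Max were Eif2s1 (r = 0.93), Tmem199 (r = 0.93) and Pcnx4 (r = 0.91), of which Eif2s1 (chr12:78861819-78887010) and Pcnx4 (chr12:72536383-72580119) lie on the chromosome of Max. The points share libraries and their scaling.

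The related MLX arm consists of Mlx and the glucose-sensing partners Mlxip (MondoA) and Mlxipl (ChREBP). Mlxip was lower in T121 tumors than in B1/P tumors, by log2 fold changes of -1.16 ± 0.22 in B1/P/Rbf (adjusted p = 0.0027) and -1.37 ± 0.23 in P/Rbf tumors (adjusted p = 0.00107, edgeR). It averaged 245 ± 100.4 CPM in B1/P tumors (SD, n = 5). Against normal gland it was higher in B1/P tumors, by 0.95 ± 0.26 (adjusted p = 0.011), and was not called in B1/P/Rbf (-0.21) or P/Rbf tumors (-0.43). Mlxipl, a lipogenic factor of fat and liver, was lower in all tumor models than in normal gland by -4.59, -4.98 and -5.60, beside the adipocyte marker sums given above. Mlx was not called in any comparison.

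Partner proteins were described by lists, with counts called over all genes tested. Of 12 MXD and MNT corepressors, 2 were called higher in each T121 group than in B1/P tumors, the histone-binding Rbbp4 (log2 fold changes 1.15 and 0.96) and the deacetylase Hdac1 (0.72 and 0.62), and none was lower. That is 16.7% of the list in each, beside 16.7% and 19.2% of all genes tested. Of 14 MYC coactivators, 1 was called in these comparisons, Trrap, the scaffold of histone acetyltransferases, which was lower by -0.74 in B1/P/Rbf and -1.06 in P/Rbf tumors, 7.14% of the list in each. Of 11 regulators of MYC protein stability, Fbxw7 (-0.79) and Ppp2r5a (-0.83) were lower in B1/P/Rbf and Btrc (-1.14) in P/Rbf than in B1/P tumors, 18.2% and 9.09% of the list. Of 9 partners of MGA in PRC1.6, 3 fell in the B1/P/Rbf group, among them Yaf2 at -0.98 and Rybp at -0.72, and 2 in P/Rbf tumors, Pcgf6 at -0.75 and Rybp at -0.73, which is 33.3% and 22.2% of the list. No gene of these lists was called between the B1/P/Rbf and P/Rbf groups. Against normal gland, 9, 10 and 8 of the 14 coactivators were higher in the B1/P/Rbf group, the B1/P group and the P/Rbf group and none lower, 64.3%, 71.4% and 57.1% of the list beside 37.0%, 33.8% and 37.7% of all genes called in either direction.

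Genes commonly described as MYC targets were counted next. Of 36 ribosome biogenesis genes, none was higher and 3 were lower when B1/P/Rbf tumors were set against B1/P tumors (8.33% called, beside 16.7% of all genes), with a median log2 fold change of -0.36 against -0.06 over all genes tested. Among the called genes, the largest falls were those of Imp4 (-0.96), an rRNA processing factor, and Wdr74 (-0.85). In P/Rbf against B1/P tumors 1 was higher, Las1l (0.85), and 6 lower, led by Rrp12 (-1.09) and Imp4 (-1.07), with 19.4% called, beside 19.2% of all genes, and a median of -0.22. Of 30 targets in metabolism and translation, 3 were higher and 2 lower when B1/P/Rbf tumors were set against B1/P tumors. The pyrimidine synthesis enzyme Cad rose by 1.38 ± 0.30 (adjusted p = 0.00517, edgeR) and Shmt1 by 0.81, while the mitochondrial chaperonin Hspe1 fell (-1.44). In P/Rbf tumors 1 was higher, Cad (0.86), and 1 lower, Hspe1 (-1.24). The shares called were 16.7% and 6.67%.

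Against normal gland, 9, 20 and 10 of the 36 ribosome biogenesis genes were higher in the B1/P/Rbf group, the B1/P group and the P/Rbf group and 1 lower in each, with medians of 0.59, 0.96 and 0.69 beside 0.05, 0.12 and 0.05 over all genes. The shares called were 27.8%, 58.3% and 30.6% of the list, beside 37.0%, 33.8% and 37.7% of all genes. For the metabolism and translation list, 13, 11 and 17 of 30 were higher and 2, 3 and 1 lower, so that 50%, 46.7% and 60% of the list were called. The third list holds genes known to be expressed in S and M phase. All 26 were higher than in normal gland in every tumor model, with medians of 3.65, 2.65 and 3.86. Of these 26, 12 were higher in B1/P/Rbf tumors than in those of B1/P mice and 15 in P/Rbf than in B1/P tumors, with none lower and medians of 0.82 and 0.95. These are 46.2% and 57.7% of the list, beside 16.7% and 19.2% of all genes. They included the replication genes Cdc6 (1.63 and 1.47) and Mcm4 (1.38 in B1/P/Rbf), and Rrm2 (1.87 in P/Rbf). No gene of the 3 lists was called between the B1/P/Rbf and P/Rbf groups.

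**Figure D4:**
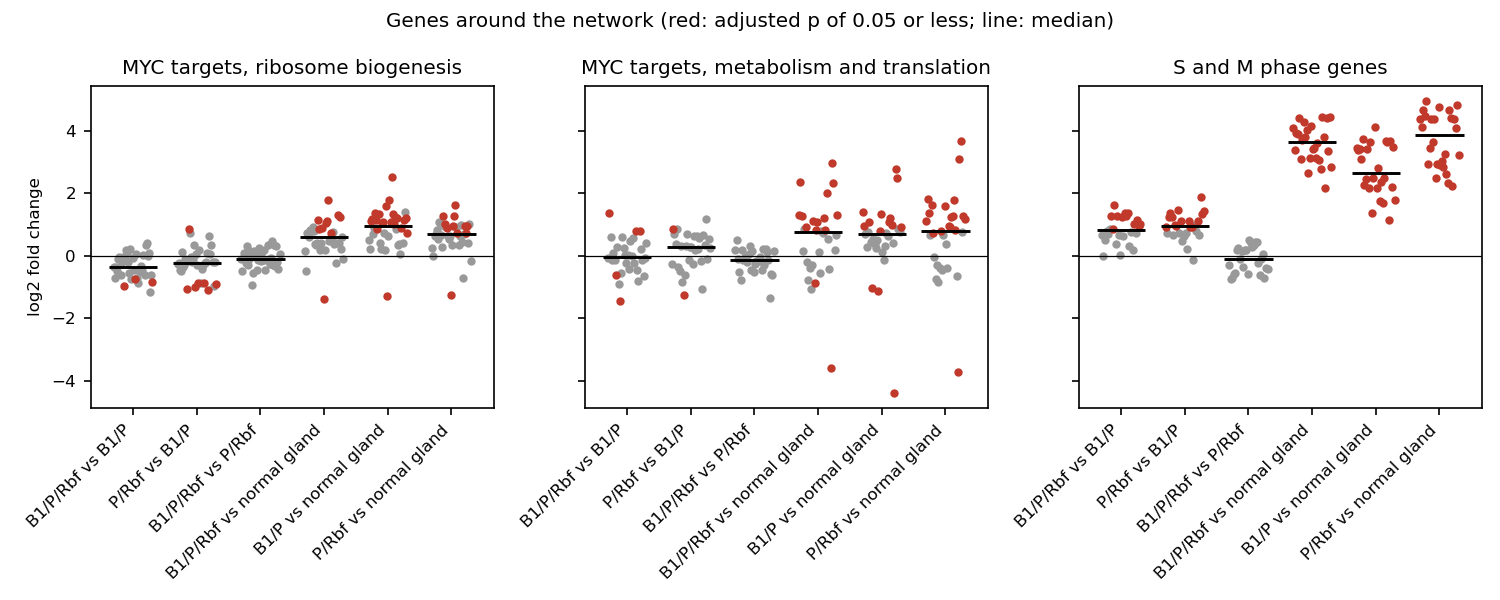
Each point is the log2 fold change of one gene of a list (36 ribosome biogenesis genes, 30 metabolism and translation genes, 26 S and M phase genes) in one of 6 comparisons, red where the adjusted p is 0.05 or less, with black lines at the medians. S and M phase genes have medians of 0.82 and 0.95 in T121 tumors against B1/P tumors, where ribosome biogenesis genes have -0.36 and -0.22.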

How the data were processed

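Total RNA of 18 mouse samples was made into stranded mRNA libraries and read in pairs. The authors deposited RSEM expected counts per gene, not normalized, and 5.61% of the values are not whole numbers. Per the labels, the processing notes name FastQC 0.11.5, cutadapt 1.18, Picard 1.119, RSEM 1.3.0 and DESeq2 1.28.1, and both human and mouse builds. All 55450 identifiers matched GENCODE M21 (GRCm38). No column belonged to other samples.

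Counts were rounded and fitted with edgeR 4.0.16 in R 4.3.3 (estimateDisp, glmQLFit, glmQLFTest, TMM scaling, group as the only term, all 18 samples), after filterByExpr with a minimum count of 10, which left 19186 genes. Standard errors of edgeR fits were derived from the test, as the absolute log2 fold change divided by the square root of its F statistic. Intervals are 95% intervals from this standard error and the test's degrees of freedom. P-values were adjusted over all genes tested. Tables and plots were made with Python 3.11.15. Alternatives were DESeq2 1.42.0, limma 3.58.1 (voom with quantile normalization), other filters, no TMM, only the groups compared, a term for mouse number, and leaving out each sample.

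The members and gene lists were chosen with earlier results of these data known. Genes named are all 10 members, Brca1, Trp53, the MLX arm, up to 2 called genes with the largest rise and up to 2 with the largest fall per list and tumor comparison (mean of at least 5 CPM), and the 3 genes most correlated with Myc, Max and Mxd3. One gene that this rule names is not reported here. Promoter windows came from RefSeq (GRCm38.p6) and matched 9 of the 10 members. Myc had no window, so its promoter was not searched. The replicate is the mouse, and its spread limits precision more than depth does.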

Additional observations from a re-analysis of the deposited data

Results flagged for a closer look

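In 30 groups of 5 tumors examined, 4 values from 3 tumors lay apart from the rest of their group by Dixon's test, a frequency to be read beside the 1 in 20 that chance gives. B1/P tumor 225070 was the highest of its group for Max, at 138 CPM, and for Mxd1, at 123 CPM. B1/P/Rbf tumor 208855 was the lowest of its group for Mxd3, at 11.9 CPM, and P/Rbf tumor 287822 the lowest of its group for Mnt, at 38.5 CPM.

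The Mycl difference from normal gland was negative in B1/P tumors and positive in B1/P/Rbf and P/Rbf tumors, at -3.63, 2.13 and 0.38 on the log2 scale. The difference between the effects, which is the comparison of the tumor groups because they share the glands, was 5.76 on the log2 scale for B1/P/Rbf against B1/P tumors (adjusted p = 0.000361, edgeR's quasi-likelihood test) and 4.00 for P/Rbf against B1/P tumors (adjusted p = 0.00181). The P/Rbf difference from the glands was not called on its own (adjusted p = 0.713), and its sign was negative without tumor 290845, at -0.45.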

How the results depend on the processing

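Over 996 refits of single members (10 members in 6 comparisons), 923 kept their side of the threshold with no change of sign, 24 lost the call and 17 gained it. In the other 32 the sign changed (to 2 decimals), in each case of a difference that was called in neither fit. Mycl was called in both comparisons of T121 tumors with B1/P tumors under every alternative run. The number of members called between tumors of the B1/P/Rbf and B1/P models was 1 with a term for mouse number and 1 with only the 2 groups compared, where Mxd4 was lost (adjusted p = 0.0719 and 0.0793). All genes called fell from 3195 to 2388 and 2039 in these fits. When a sample was left out, 1 to 3 members were called, beside 2315 to 3467 of all genes. Between P/Rbf and B1/P tumors the number of members called was 1 with only the 2 groups compared (Mxd4, adjusted p = 0.0576), where all genes called fell from 3684 to 1507. It was 2 in every fit that left out a sample, beside 2763 to 3924 of all genes. Between the B1/P/Rbf and P/Rbf groups it was 0 throughout, beside 1 to 1026 of all genes. Against normal gland, a filter that asks for a log2 CPM of 6 or more in 6 or more samples tested 7 of the members. The members it removed were Mycn, Mxd3 and Mnt, so the Mxd3 and Mnt calls were not tested under it. Among the 7 members tested it left 1 call in each of the 3 comparisons (Mxd4, Mycl and Mxd4), beside 1760, 1600 and 1669 of the 4551 genes tested. The mouse-number term left 1 in B1/P/Rbf tumors, where Mycl, Mxd4 and Mnt were lost, while all genes called fell from 7108 to 3879. Without TMM scaling the count in B1/P/Rbf tumors stayed at 4, with Mxd4 lost and Mga gained, and was 5 in B1/P and 5 in P/Rbf tumors, and DESeq2 gave 5 in B1/P tumors. All genes called rose from 7108, 6481 and 7230 to 8009, 7566 and 7879 without TMM scaling, and to 7491 in B1/P tumors with DESeq2. Omitting TMM scaling moved the median of all genes against normal gland from 0.05, 0.12 and 0.05 to 0.42, 0.47 and 0.33. Leaving out a sample gave 3 to 4, 2 to 4 and 3 to 4 members in the 3 comparisons. All genes called were then 4993 to 6930, 4320 to 6435 and 5157 to 7259. The Mycl call in B1/P/Rbf tumors against gland was also lost without a filter (adjusted p = 0.0509), when 6 samples had to reach a CPM of 6 (0.0522) and with the mouse-number term (0.0581, log2 fold change 3.30). No mouse number above 246361 belongs to a B1/P/Rbf tumor and none up to it to P/Rbf tumors or glands, so that term rests on B1/P tumors. Apart from the filters, which change the genes tested, the cause of these changes was not tested. No paired analysis was possible because the labels give no replicate numbers shared between groups.

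The log2 differences that changed sign were the following. With the mouse-number term they were Mxd1 at -0.13 in B1/P/Rbf against B1/P tumors, and Myc at 0.03, Mxd3 at 0.06, Mnt at -0.45 and Mga at 0.38 in B1/P/Rbf against P/Rbf tumors. With the same term, against normal gland, they were Max at -0.43, Mxd1 at -0.51 and Mxi1 at -0.08 in B1/P/Rbf and Max at -0.09 and Mxd1 at -0.38 in B1/P tumors. With the log2 CPM filter they were Mxi1 at -0.02 in P/Rbf against B1/P tumors, and, against gland, Max at -0.17 and Mxi1 at -0.29 in B1/P/Rbf and Mycl at -0.02 in P/Rbf tumors. The CPM filter gave Mxi1 at -0.10 in B1/P/Rbf tumors against gland, and without TMM scaling Mxd4 was at 0.17 in B1/P tumors against gland. Limma gave Mxd1 at 0.22 in B1/P/Rbf against P/Rbf tumors, and, against gland, Mxi1 at -0.03 in B1/P/Rbf and Mycl at -0.09 in P/Rbf tumors. Leaving out a sample gave Max from -0.25 to 0.16 in B1/P/Rbf against B1/P tumors. In P/Rbf against B1/P tumors it gave Mxd1 from -0.11 to 1.01 and Mxi1 from -0.04 to 0.21. In B1/P/Rbf against P/Rbf tumors it gave Mxd1 from -0.39 to 0.39, Mxd3 from -0.33 to 0.20 and Mxd4 from -0.12 to 0.17. Against gland it gave Mxi1 from -0.15 to 0.15 in B1/P/Rbf, Max from -0.04 to 0.41 in B1/P and Mycl from -0.45 to 1.18 in P/Rbf tumors. The cause of these changes of sign was not tested.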

Other observations

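The neighbours of Mycl and Myc were looked at after the values of Mycl had been seen, taking the 2 nearest tested protein-coding genes on each side. Trit1, a tRNA-modifying enzyme that starts 14112 bases beyond Mycl, had 27.6 to 63.9 CPM in B1/P/Rbf, 8.95 to 20.6 in B1/P and 14.9 to 39.4 in P/Rbf tumors, and 31.8 to 49.6 in normal glands. It was higher in B1/P/Rbf tumors than in those of B1/P mice by 1.71 ± 0.32 on the log2 scale (adjusted p = 0.00234) and in P/Rbf than in B1/P tumors by 0.93 ± 0.31 (adjusted p = 0.0462), and lower in B1/P tumors than in normal gland, at -1.57 ± 0.35 (adjusted p = 0.00265, edgeR's quasi-likelihood test). Within the tumor groups its log2 CPM had r = 0.73 with that of Mycl over 15 tumors. The same value was 0.29 for Mfsd2a and -0.06 for Cap1, the neighbours on the other side.

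Bmp8b, a BMP ligand 102680 bases beyond Mycl, was low. It had 2.16 to 20.9 CPM in B1/P/Rbf, 0 to 0.41 in B1/P and 1.82 to 4.83 in P/Rbf tumors. Normal glands had 0.542 to 1.9 CPM of Bmp8b. Its log2 fold changes against B1/P tumors were 6.35 ± 0.89 (adjusted p = 0.000429) and 4.85 ± 0.84 (adjusted p = 0.00142, edgeR). Against normal gland it was higher in B1/P/Rbf tumors, at 3.30 ± 0.94 (adjusted p = 0.0109, edgeR). It was lower in B1/P tumors, at -3.06 ± 0.84 (adjusted p = 0.0103, edgeR), and not called in P/Rbf tumors (1.79 ± 0.87, adjusted p = 0.112, edgeR). Its correlation with Mycl was not computed. Bmp8b has a related gene, Bmp8a, and how RSEM divided reads between them was not examined. On the other side, Cap1 was higher in B1/P/Rbf tumors than in those of B1/P mice by 0.87 ± 0.27 (adjusted p = 0.0371), and Mfsd2a, the nearest gene on that side, was not called (1.51 ± 1.08, adjusted p = 0.363).

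Around Myc, whose nearest tested neighbour lay 1131613 bases away, Fam84b was higher in all 3 tumor models than in normal gland (1.20 ± 0.42, 2.13 ± 0.44 and 1.33 ± 0.42 on the log2 scale, adjusted p = 0.0328, 0.00135 and 0.02, edgeR), and not called between tumor groups. Trib1, the next gene on that side, was higher than in gland in B1/P/Rbf (1.77 ± 0.50, adjusted p = 0.0107) and B1/P tumors (1.38 ± 0.49, adjusted p = 0.0391, edgeR) and was not called between tumor groups. On the other side, Gsdmc2 was higher in B1/P/Rbf tumors than in those of B1/P mice by 6.25 ± 1.98 (adjusted p = 0.0395, edgeR), with a wide error, and Gsdmc was not called in any comparison.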
